A study of Mus musculus with 8 samples.

Results

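N6-methyladenosine (m6A) peaks over 9 genes of the Polycomb system were described in mouse embryonic stem cells (ESCs) given DMSO or doxycycline (Dox). The genes were Ezh2, Eed, Suz12, Jarid2, Mtf2, Aebp2, Rnf2, Ring1 and Kdm2b, chosen by name as subunits of Polycomb repressive complexes (PRC) 2 and 1. A peak was assigned to a gene when its exon blocks shared at least 1 base with the gene's annotated exons on the same strand (GENCODE release M21, GRCm38, mm10). This gave 41 of the 18895 peaks of the DMSO list and 26 of the 13001 peaks of the Dox list.

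PRC2 methylates lysine 27 of histone H3 and PRC1 ubiquitinates histone H2A, and in ESCs both are known for holding developmental genes in a repressed, CpG-rich chromatin. In PRC2, EZH2 is the methyltransferase, EED binds the methylated product and SUZ12 is the scaffold, while JARID2, MTF2 and AEBP2 are accessory subunits that steer the core complex. RNF2 and RING1 are the alternative ubiquitin ligases of PRC1, and KDM2B brings a variant PRC1 to unmethylated CpG islands. The mark measured here sits on the mRNA of these genes and not on their chromatin. It is deposited within a short sequence context, is found mostly in long internal exons and near stop codons, and is read by proteins of the YTH family that affect mRNA decay and translation.

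All cells were of the mouse ESC line E14 and, per the study's methods, carried a Dox-inducible Dux transgene and a tdTomato reporter driven by the Mervl promoter, in the DMSO and the Dox group alike. DUX, a transcription factor of the early embryo, turns on genes of the 2-cell stage and brings part of an ESC culture into a 2C-like state. Treatment lasted 24 h, and methylated RNA immunoprecipitation sequencing (MeRIP-seq) was made from immunoprecipitated (IP) and input RNA in 2 libraries for each treatment and each kind of RNA, 8 libraries in all. No cells without the transgene were among these groups, so that effects of Dox itself and of DUX cannot be told apart.

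Peaks were deposited as 1 list per treatment. The values below therefore lack a replicate error, and treatments were compared without a test. Each peak carries a score, taken to be −log10 of the peak caller's p-value for IP over input, which was at least 10 in both lists. A score percentile is the rank of that score within its own list. Intervals are Wilson 95% intervals unless named exact, and they cover counting error over peaks only. They treat peaks as independent, although peaks of 1 gene share its exons and many peaks recur in both lists. Read depth per library and mRNA levels were not analysed here, so that fewer modified molecules, less mRNA and less depth cannot be told apart. Each of the 7 ESC marker genes examined had a peak in both lists, and of the 7 markers of 2C-like cells, 2 had a peak under DMSO and 7 under Dox. None of 4 primitive endoderm and 3 fibroblast markers had a peak, and of 3 trophoblast markers only Eomes did, with 2 DMSO peaks.

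The sequences on which the description turns are shown first, 5′ to 3′ on the mRNA strand, from the GRCm38 reference sequence of RefSeq (mm10). Each is the coding part of a peak or of the bases shared by an overlapping pair of peaks, except for Mtf2, where a short stretch around a single motif in the 3′ untranslated region (UTR) is given. Capitals mark GGAC, the most common core of the m6A context, and, for Suz12 alone, which has no GGAC in its peaks, the wider context called DRACH. DRACH is 5 bases long, with A, G or T first, A or G second, then A and C, and A, C or T last. Both motifs were searched on the mRNA strand only. The 3 PRC2 core genes came first. The Ezh2 stretch is the exon 9 part of a peak identical in both lists (chr6:47547345-47547383, minus strand). It is followed by the start of the Eed reading frame (2 blocks, chr7:89980412-89980525 and chr7:89976944-89977049, minus strand) and the end of the Suz12 reading frame up to its stop codon (chr11:80032004-80032190, plus strand).
Ezh2: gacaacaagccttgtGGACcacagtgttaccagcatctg
Eed: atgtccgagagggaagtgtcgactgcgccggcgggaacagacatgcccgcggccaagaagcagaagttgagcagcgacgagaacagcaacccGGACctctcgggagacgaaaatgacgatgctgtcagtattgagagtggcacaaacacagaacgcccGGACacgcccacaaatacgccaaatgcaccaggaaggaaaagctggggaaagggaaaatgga
Suz12: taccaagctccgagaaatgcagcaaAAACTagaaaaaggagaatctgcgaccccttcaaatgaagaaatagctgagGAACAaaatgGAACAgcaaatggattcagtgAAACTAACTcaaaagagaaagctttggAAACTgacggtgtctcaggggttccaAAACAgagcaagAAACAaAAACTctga

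For the accessory subunits, 2 stretches of Jarid2 are shown because they hold its best-scoring peak in each list, in exon 2 for DMSO (chr13:44823398-44823515, plus strand) and at the stop codon for Dox (chr13:44919890-44919952, plus strand). Neither holds GGAC. The Mtf2 stretch (chr5:108106941-108106964, plus strand) is centred on the only GGAC of that transcript inside peaks, with 10 bases on each side. The Aebp2 stretch (chr6:140633689-140633818, plus strand) is the exon 2 part, with 4 GGAC, of a peak identical in both lists.
Jarid2, exon 2: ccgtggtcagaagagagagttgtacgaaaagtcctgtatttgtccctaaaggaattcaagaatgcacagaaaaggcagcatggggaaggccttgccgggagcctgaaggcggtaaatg
Jarid2, stop codon: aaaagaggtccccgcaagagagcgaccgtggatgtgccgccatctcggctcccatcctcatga
Mtf2: cctgactgtaGGACtgaacgtaat
Aebp2: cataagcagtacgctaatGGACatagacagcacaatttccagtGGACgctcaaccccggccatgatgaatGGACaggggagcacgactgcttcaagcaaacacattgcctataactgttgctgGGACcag

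For PRC1, the Rnf2 stretch (chr1:151473166-151473344, minus strand) is the exon 6 part shared by both lists. The first Kdm2b stretch (chr5:122932567-122932841, minus strand) is its best-scoring DMSO peak, which no Dox peak overlapped, and the second (chr5:122882123-122882147, minus strand) is the only Dox peak of all 9 genes that no DMSO peak overlapped.
Rnf2: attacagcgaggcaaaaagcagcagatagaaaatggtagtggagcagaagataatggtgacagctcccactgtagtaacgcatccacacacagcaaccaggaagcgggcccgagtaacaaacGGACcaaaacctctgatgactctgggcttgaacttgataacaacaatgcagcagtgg
Kdm2b, DMSO list only: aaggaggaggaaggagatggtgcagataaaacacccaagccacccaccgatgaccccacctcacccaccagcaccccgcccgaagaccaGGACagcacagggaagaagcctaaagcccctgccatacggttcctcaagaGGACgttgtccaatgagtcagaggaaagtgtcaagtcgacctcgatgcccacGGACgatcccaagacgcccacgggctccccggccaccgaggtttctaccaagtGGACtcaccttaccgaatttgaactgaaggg
Kdm2b, Dox list only: caacaaggaagggcaagagcctgcc

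Of the 9 genes, 8 had a peak in the DMSO list and the same 8 had one in the Dox list. Among all 22028 protein-coding genes, 27.5% carried a peak in DMSO and 22.1% in Dox. These genes were counted whatever their mRNA level, which was not analysed here, so that they are not a scale matched for expression. Ring1 was the gene without a peak in either list. The DMSO list held 61.2% (exact 95% interval 48.5 to 72.9) of the 67 peaks over these genes, and 59.2% of all peaks, so that the excess of DMSO peaks was close to that of the whole lists. The ratio of DMSO to Dox peaks was 1.58 for the Polycomb genes and 1.45 for all peaks.

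More DMSO than Dox peaks were seen in 6 of the 8 genes with peaks (Ezh2, Suz12, Jarid2, Mtf2, Aebp2 and Rnf2), while 58.9% of all 6407 genes with a peak in either list had more DMSO peaks. Eed and Kdm2b had more Dox peaks, as did 12.7% of all 6407 genes. When only the 13001 top-scoring DMSO peaks were kept, so that both lists were of equal size, 32 DMSO peaks were left over the 9 genes and 3 genes had more DMSO than Dox peaks. The share of all genes with more DMSO peaks was not counted at equal size, so that this drop has no scale beside it. Counts of peaks also changed when 1 long peak of a list was broken into several in the other, and the exonic bases covered were therefore compared as well. They summed to 8375 nt in the DMSO list and 5575 nt in the Dox list, a ratio of 1.502, and over all 6407 genes with a peak the ratio was 1.47. Of these, 5500 nt lay in peaks of both lists, which was 65.7% of the DMSO bases and 98.7% of the Dox bases. In bases, all 8 genes had more in the DMSO list, Eed and Kdm2b included, as did 86.3% of all 6407 genes.

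**Figure D1:**
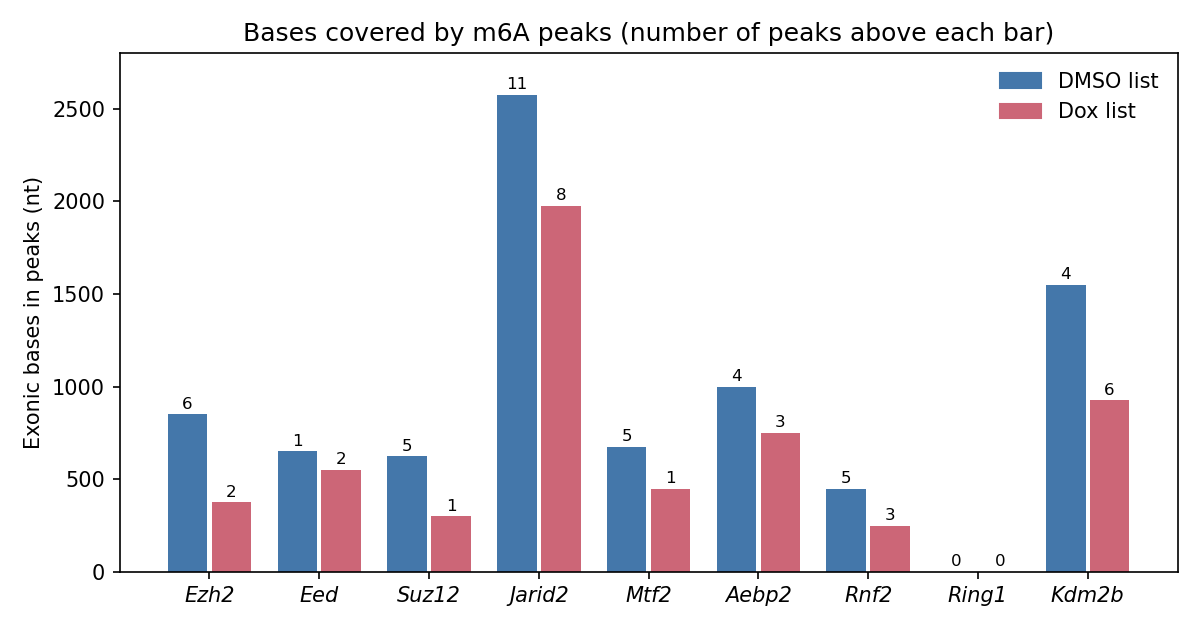
Exonic bases covered by m6A peaks (nt, vertical axis) for each of the 9 Polycomb genes in the DMSO list and the Dox list, with the number of peaks above each bar and 1 list per treatment, so that no error bar is drawn. The DMSO bar was the higher one in all 8 genes with peaks, from 2575 against 1975 nt in Jarid2 to 450 against 250 nt in Rnf2, and Ring1 had none.

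Ezh2 (chr6:47530139-47595341, minus strand), the catalytic subunit of PRC2, had 6 DMSO peaks covering 850 nt and 2 Dox peaks covering 375 nt. Its DMSO peaks, from 5′ to 3′, had lengths of 50, 150, 75, 50, 375 and 150 nt and scores of 11.3, 12.3, 12.7, 12.4, 12.8 and 11.3. The Dox peaks, of 50 and 325 nt, had scores of 11.9 and 12.4. They were the counterparts of the fourth and the fifth DMSO peak, and all of their bases lay within these. What the Dox list lacked was therefore 4 peaks, with their middles in exons 2, 6, 8 and 12. On the transcript with the longest coding sequence, all Ezh2 peaks lay in the coding sequence, and none lay in the 3′ UTR of 402 nt. Their middle bases lay at least 776 nt before the stop codon. The last 3 DMSO peaks also had 11, 21 and 7 bases outside this transcript, and the 2 Dox peaks had 11 and 21. Only 1 transcript, without a coding sequence, held the sixth DMSO peak whole. The shared stretch began in exon 9 and ran into exons 10 and 11, and its first part is the 39-nt coding sequence shown above with a single GGAC.

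Eed (chr7:89954654-89980983, minus strand), the subunit that binds the methylated histone, had called peaks at its 5′ end and nowhere else. In the DMSO list a single peak of 650 nt, with a score of 12.0, ran from position 54 of the transcript to position 703, over most of the 5′ UTR of 458 nt and the first 245 nt of the reading frame. In the Dox list the same stretch held 2 peaks of 275 nt each, with scores of 11.7 and 12.4. The higher number of Dox peaks in Eed thus came with fewer covered bases, 550 nt, all of them inside the DMSO peak. Each list covered 5 of the 7 GGAC sites of the transcript, 3 in the 5′ UTR and 2 in the reading frame. A site was counted as covered when its A lay in a peak.

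Suz12 (chr11:79993106-80034123, plus strand), the scaffold of PRC2, had 5 DMSO peaks covering 625 nt and 1 Dox peak of 300 nt. The DMSO peaks were 50, 25, 75, 75 and 400 nt long, with scores of 12.9, 11.0, 10.3, 11.5 and 13.7. The longest and best-scoring one covered the stop codon in the last exon, and the Dox peak, scored at 12.9, lay wholly within it. The other 4 DMSO peaks lay upstream in exons 11, 14 and 15 and had no Dox counterpart. No peak of Suz12 in either list held GGAC. Of the 5 GGAC sites of its transcript, which had the lowest density of the 9 genes with 1.14 per kb, none was covered. The stop codon peak held 15 DRACH matches in its DMSO form and 13 in its Dox form, and 9 of them lie in the coding stretch shown above, most with AAAC or GAAC as their core.

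**Figure D2:**
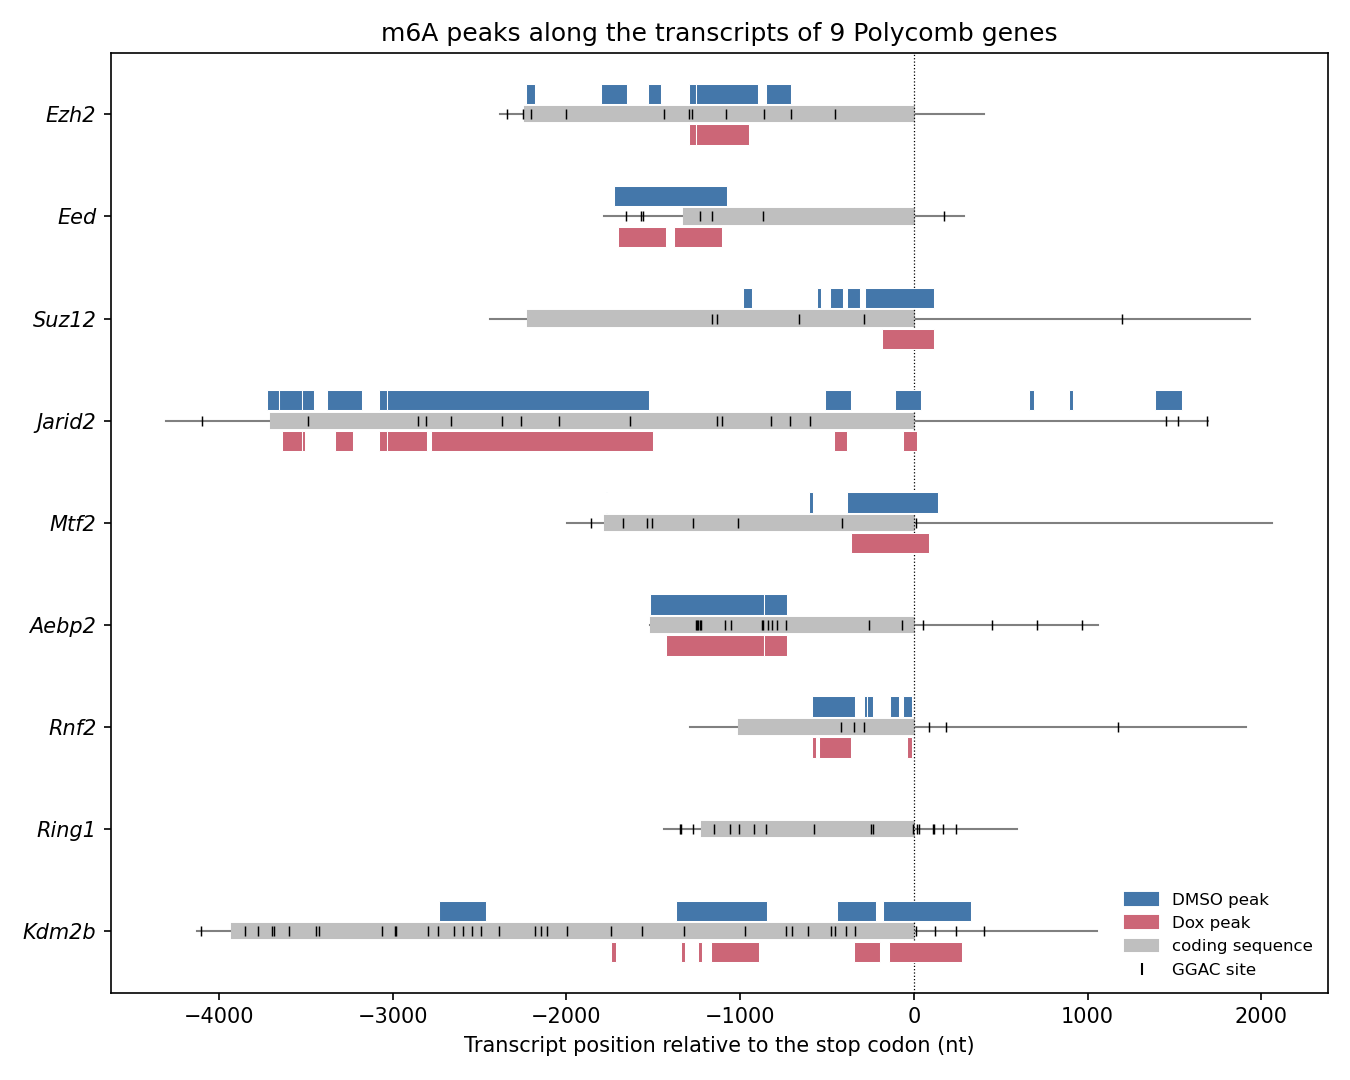
Peaks along the transcript with the longest coding sequence of each of the 9 genes, with distance from the stop codon in nt on the horizontal axis, DMSO peaks above and Dox peaks below each line, the coding sequence as a grey bar and GGAC sites as ticks. Parts of peaks outside that transcript are not drawn. Peaks of both lists covered the stop codon in Suz12, Jarid2, Mtf2 and Kdm2b, the Eed peaks lay at its 5′ end, and in 22 of 25 overlapping pairs the DMSO peak was the longer one, as in 72.9% of all pairs.

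Jarid2 (chr13:44729474-44921643, plus strand), an accessory subunit with DNA-binding activity, carried more peaks than any other of the 9 genes, with 11 in the DMSO list (2575 nt) and 8 in the Dox list (1975 nt). It also carried the highest scores. From 5′ to 3′ the DMSO scores were 17.7, 45.5, 22.6, 10.9, 24.3, 18.8, 11.0, 13.4, 11.9, 10.5 and 11.7. The 5 scores of 17.7 or more all lay above the 94th percentile of the DMSO list and came from the start codon and the first part of the reading frame, between positions 581 and 2776 of a 5997-nt transcript. The best one, 45.5, ranked at percentile 99.5 and belonged to a peak of 150 nt over exon 2.

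The same stretch had peaks in the Dox list, but none of them reached the 94th percentile there. Exon 2 had a score of 12.4 there (percentile 71.5, against 99.5 in DMSO). The next pair, over the start of exon 3, had 22.6 in DMSO and 12.4 in Dox. A 50-nt peak in exon 5, with the same borders in both lists, had 24.3 in DMSO (percentile 98.2) and 10.6 in Dox (percentile 16.5). The widest DMSO peak, 1525 nt over exons 6 to 8 with a score of 18.8, met 2 Dox peaks of 250 and 1275 nt, with scores of 13.3 and 12.4, that together held 1500 nt of it. The 17.7 peak at the start codon had no Dox counterpart. Other pairs ranked higher in Dox. The pair around exon 4, inside the same stretch, had 10.9 in DMSO (percentile 22.2) and 11.2 in Dox (percentile 36.4). The pair around exon 16 had 11.0 in DMSO (percentile 28.2) and 11.7 in Dox (percentile 57.5). The stop codon peak also ranked higher in Dox. It had 13.4 in DMSO (percentile 80.3, 150 nt) and 16.7 in Dox (percentile 94.9, 75 nt), the highest score of any Dox peak over the 9 genes.

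A lower rank in the other list is common among high-ranking peaks. To set a scale, the pairs whose DMSO peak lay at or above percentile 94 were taken. There were 5 such pairs over the 9 genes, all in Jarid2 and made of 4 DMSO peaks, and their Dox percentiles had a median of 71.6, with 4 of 5 below 75. Over all 1059 such pairs the median Dox percentile was 87.4 (quartiles 64.6 and 96.6), and 35.1% lay below 75. The Jarid2 values all lay below that median, 4 of them above the lower quartile and 1 below it. These pairs share 1 gene and are not independent of each other.

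Several of these Jarid2 peaks were short and joined pieces of more than 1 exon. The DMSO peaks with scores of 17.7, 45.5 and 18.8 had exon blocks that no single annotated transcript holds, because outer blocks of up to 20 bases belonged to exons of other transcripts. The exon 2 peak held no GGAC and 1 DRACH match, and its Dox counterpart held neither, as the stretch shown above makes visible. The long peak over exons 6 to 8 held 7 GGAC, and the 150-nt DMSO peak in the 3′ UTR, which had no Dox counterpart, held 2. Both of the other 3′ UTR peaks were 25 nt long, without GGAC, and in the DMSO list only.

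**Figure D3:**
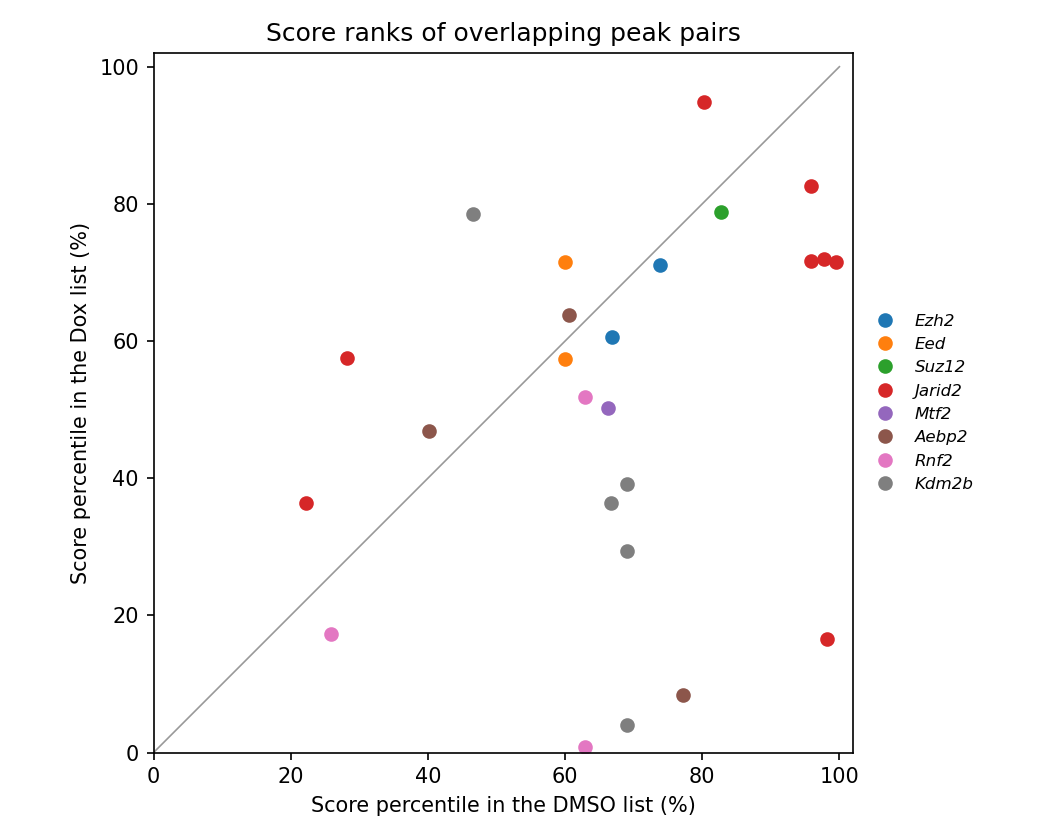
Score percentile (%) in the DMSO list (horizontal axis) and in the Dox list (vertical axis) for the 25 overlapping pairs of peaks over the 8 Polycomb genes with peaks, coloured by gene, with the line of equal rank. A total of 18 pairs lay below the line, among them the 5 Jarid2 pairs at the right edge and the stop codon pairs of Suz12 and Mtf2. Above the line lay 7 pairs, among them the stop codon pairs of Jarid2 and Kdm2b.

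Mtf2 (chr5:108065674-108109004, plus strand), a Polycomb-like subunit of PRC2.1 that binds unmethylated CpG-rich DNA, had 5 DMSO peaks covering 675 nt and 1 Dox peak of 450 nt. The DMSO peaks were 75, 25, 25, 25 and 525 nt long with scores of 11.8, 17.5, 10.7, 11.5 and 12.3. The peak of 525 nt covered the stop codon, and the Dox peak, with a score of 11.5, lay wholly within it. Both held the GGAC shown above, whose A lies 10 nt past the first base of the stop codon. The score of 17.5 belonged to a 25-nt peak in 2 blocks that no annotated transcript holds together. This peak and both peaks next to it had their middle outside the transcript with the longest coding sequence. The fourth peak, of 25 nt in exon 12, matched another genome locus over its whole length. Whether the longer reads behind it were ambiguous was not tested.

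Aebp2 (chr6:140622663-140678472, plus strand), an accessory subunit of PRC2.2 with zinc fingers, had 4 DMSO peaks covering 1000 nt and 3 Dox peaks covering 750 nt. The DMSO peaks had lengths of 675, 150, 125 and 50 nt and scores of 12.0, 11.4, 13.1 and 10.3. In the Dox list the first 3 had counterparts of 575, 150 and 25 nt, with scores of 12.0, 11.4 and 10.4. The peaks in exons 1 and 2 thus ranked alike in both lists (percentiles 60.6 and 63.9, and 40.2 and 46.9), while the third, which lies outside the longest coding transcript, ranked at percentile 77.2 in DMSO and 8.42 in Dox. Exons 1 and 2 held 13 of the 19 GGAC sites of the transcript under peaks, the same number in each list. No peak lay in the 3′ UTR of 1054 nt of this transcript or near its stop codon. The fourth DMSO peak lay outside this transcript as well, so that neither it nor the third could be placed relative to that stop codon.

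Rnf2 (chr1:151458004-151500955, minus strand), a ubiquitin ligase of PRC1, had 5 DMSO peaks covering 450 nt and 3 Dox peaks covering 250 nt. The DMSO peaks were 275, 25, 50, 50 and 50 nt long with scores of 12.1, 12.0, 10.9, 11.9 and 11.0. The first was met by 2 Dox peaks of 25 and 200 nt with scores of 10.04 and 11.6, and the last by one of 25 nt scored at 10.7. The reading frame of the transcript has 1008 nt after a 5′ UTR of 279 nt. On this transcript every Rnf2 peak lay in the frame, from position 699 to position 1275, just before the stop codon. The first 3 DMSO peaks also had 26, 6 and 16 bases outside this transcript, and the second Dox peak had 21. No Rnf2 peak reached into the 3′ UTR of 1911 nt of this transcript. Of the 6 GGAC sites, the DMSO peaks covered 3 and the Dox peaks 1, the one in the stretch shown above.

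Ring1 (chr17:34020792-34024680, minus strand), the paralogue of Rnf2, had no peak in either list. Its transcript of 2034 nt held 18 GGAC sites, or 8.85 per kb, the highest density of the 9 genes, with 9 in the coding sequence and 6 in the 3′ UTR. An absent peak says only that none passed the authors' threshold in either list. Whether the mRNA was abundant enough for a peak to be called was not analysed here.

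Kdm2b (chr5:122870665-122989823, minus strand), which recruits the variant complex PRC1.1 to CpG islands, had 4 DMSO peaks covering 1550 nt and 6 Dox peaks covering 925 nt. The DMSO peaks were 275, 525, 225 and 525 nt long with scores of 14.8, 12.5, 12.4 and 11.5. The Dox peaks were 25, 25, 25, 275, 150 and 425 nt long with scores of 11.9, 10.2, 11.0, 11.2, 11.2 and 12.9. Of these, 3 came from the break-up of the second DMSO peak in exon 19, of which they held 325 nt and left 200 nt without a peak.

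The best-scoring Kdm2b peak of the DMSO list, 275 nt within exon 11 with 4 GGAC, had no Dox counterpart. Against this, the Dox list had a 25-nt peak in exon 16, without GGAC or DRACH, that the DMSO list lacked. At the stop codon the DMSO peak had a score of 11.5 (percentile 46.6) and the Dox peak, which was shorter by its blocks and lay inside it, had 12.9 (percentile 78.6). The last 2 DMSO peaks and their Dox counterparts matched a processed pseudogene, Gm12397 on chromosome 4, at 98% identity or more across 90% or more of their bases, so that the origin of these 4 peaks is uncertain, and how many of the reads behind them were ambiguous was not tested. Across the 9 genes, 3 of 41 DMSO peaks and 2 of 26 Dox peaks had such a second locus. The search covered the peaks of these genes alone, so that no share over all peaks can be given.

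Taking the 9 genes as a group, 20 of 41 DMSO peaks (48.8%, 34.3 to 63.5) were overlapped by a Dox peak, against 57.0% of all DMSO peaks. In the other direction, 25 of 26 Dox peaks (96.2%, 81.1 to 99.3) were overlapped by a DMSO peak, against 92.7% of all Dox peaks. Both intervals hold the value of the whole list. The overlap made 25 pairs. In 23 of them the Dox peak lay wholly inside the DMSO peak (92.0%, and 82.4% of all 12372 pairs). Of the pairs, 22 had the longer peak in DMSO (88%, and 72.9% of all pairs), 3 had peaks of equal length, and 0 had the longer peak in Dox, as 1537 of all 12372 pairs did. The DMSO peak ranked higher within its list in 18 pairs (72.0%, and 62.8% of all pairs).

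Length went with sharing. The 20 shared DMSO peaks had a median length of 212.5 nt and the 21 peaks found in the DMSO list only had one of 50 nt, and over all peaks these medians were 200 and 50 nt. Of the DMSO peaks longer than 150 nt, 11 of 12 were shared (91.7%, and 90.8% of all DMSO peaks of that length), the exception being the Kdm2b peak in exon 11. Of those of 25 to 50 nt, 3 of 15 were shared (20%, 7.05 to 45.2, and 17.5% of all DMSO peaks of that length). Most of the peaks that the Dox list lacked were thus short, as they were across the whole list. In the Dox list, 8 of 9 peaks of 25 to 50 nt were shared (88.9%, and 81.5% of all Dox peaks of that length).

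Along the mRNA, peaks of the Polycomb genes lay mainly in the coding sequence. Of the peaks whose middle base lay on the chosen transcript, 31 of 36 in the DMSO list (86.1%, 71.3 to 93.9) and 23 of 25 in the Dox list (92.0%, 75.03 to 97.8) were coding, against 71.9% and 71.0% of all peaks. The Dox interval lies above the value of its list and the DMSO interval holds it. Within 200 nt of the stop codon lay 6 of 36 DMSO peaks (16.7%, 7.87 to 31.9) and 5 of 25 Dox peaks (20%, 8.86 to 39.1), against 22.9% of all DMSO and 25.1% of all Dox peaks. Peaks over the stop codon itself were present in Suz12, Jarid2, Mtf2 and Kdm2b, 4 in each list. They were counted for the Polycomb genes only, without a share over all peaks, and the Kdm2b pair is among those matching the pseudogene Gm12397.

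Peaks made of 2 or more exon blocks were frequent among these genes, with 24 of 41 in the DMSO list (58.5%, 43.4 to 72.2) and 12 of 26 in the Dox list (46.2%, 28.8 to 64.5). The shares over all peaks were 26.4% and 21.8%, below both intervals. Of the Polycomb peaks, 8 from DMSO and 3 from Dox had blocks that no single annotated transcript holds. This was counted for the 9 genes only, so that no share over all peaks stands beside it.

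GGAC was present in 16 of 41 DMSO peaks (39.0%, 25.7 to 54.3) and in 14 of 26 Dox peaks (53.8%, 35.5 to 71.2), against 54.0% of all DMSO and 55.9% of all Dox peaks. The share was higher in longer peaks. Among peaks longer than 150 nt it was present in 10 of 12 DMSO peaks (83.3%, and 81.1% of all), and among those of 25 to 50 nt in 2 of 15 (13.3%, and 19.1% of all). In between, at 51 to 150 nt, it was present in 4 of 14 DMSO peaks (28.6%, 11.7 to 54.6), below the 49.9% of all DMSO peaks of that length, which the interval holds. DRACH was present in 35 of 41 DMSO peaks (85.4%, and 84.9% of all) and in 20 of 26 Dox peaks (76.9%, 57.9 to 89.0, and 85.4% of all). A motif inside a peak is a description of its letters and does not show which base was methylated.

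Seen from the sites, the 8 transcripts with peaks held 110 GGAC. Of these, 47 (42.7%) lay in DMSO peaks and 36 (32.7%) in Dox peaks, while the peaks covered 26.1% and 18.0% of the bases. Over all genes with a peak, 22.0% and 15.98% of GGAC sites and 14.8% and 10.1% of bases were covered. The covered share differed widely between genes, from 13 of 19 in Aebp2 and 5 of 7 in Eed in both lists to 1 of 8 in Mtf2 and 0 of 5 in Suz12. No GGAC site was covered in the Dox list alone.

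**Figure D4:**
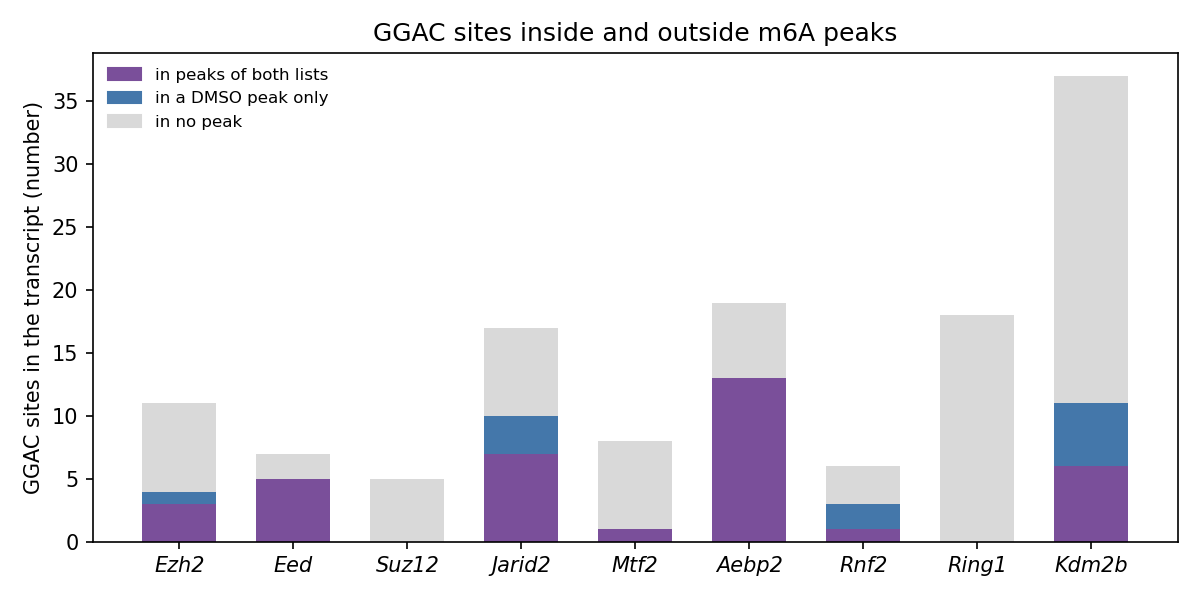
Number of GGAC sites (vertical axis) in the transcript with the longest coding sequence of each of the 9 genes, split into sites covered by peaks of both lists, by a DMSO peak only and by no peak. Aebp2 had 13 of 19 sites covered in both lists, Kdm2b had 11 of 37 covered by DMSO peaks and 6 by Dox peaks, and Suz12 and Ring1 had none covered.

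The other genes of the Polycomb system were described from a list of 35. Of these, 23 carried a peak in DMSO and 19 in Dox, 12 had none in either list, and no gene had a peak in the Dox list only. Among all 22028 protein-coding genes, counted whatever their mRNA level, 6064 (27.5%) carried a peak in DMSO and 4879 (22.1%) in Dox. The 35 genes carried 100 DMSO peaks and 71 Dox peaks, with more DMSO peaks in 17 genes, more Dox peaks in 2 and equal numbers in 4. Of all 6407 genes with a peak in either list, 58.9% had more DMSO peaks, 12.7% more Dox peaks and 28.5% equal numbers. The ratio of DMSO to Dox peaks over the whole lists was 1.45. The 4 genes with a peak in the DMSO list only were Lcor and Lcorl, whose loci also encode the PALI subunits of PRC2.1, Pcgf6, which defines a germline-linked variant PRC1, and Phc3, a polyhomeotic subunit. These had 1 to 2 peaks each with best scores of 10.6 to 12.0.

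Among genes whose peak number differed by at least 2, Rbbp4, a histone-binding subunit of PRC2, had 3 DMSO peaks and 1 Dox peak. The chromodomain subunits Cbx2 and Cbx6 had 7 and 6 DMSO peaks and 4 and 2 Dox peaks, and Phc1 had 6 and 2. Usp7, a deubiquitinase of PRC1.1, had 7 and 2, and Bap1, the deubiquitinase that removes the PRC1 mark, had 5 and 1. Only Fbrsl1, linked to the PCGF3 and PCGF5 forms of PRC1 (6 DMSO and 8 Dox peaks), and Asxl2, a partner of BAP1 (5 and 8), went the other way. Bases did not always follow these counts. Cbx2 had fewer bases in DMSO than in Dox (750 and 850 nt), and those of Cbx6 were close (700 and 675 nt). As with Eed and Kdm2b, the bases of Asxl2 were not higher in the Dox list, with 2775 nt in DMSO and 1375 nt in Dox, while those of Fbrsl1 were 1875 and 1925 nt.

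The 5 best scores of this list in DMSO were those of Rybp (21.6), Rbbp4 (21.1), Phc1 (19.7), Pcgf2 (16.5) and Pcgf3 (15.6), all below the 45.5 of Jarid2. In Dox they were those of Fbrsl1 (16.5), Asxl1 (16.1), Pcgf3 (15.2), Cbx7 (14.1) and Epop (13.3), all below the 16.7 of the Jarid2 stop codon peak. Rybp, which marks variant PRC1, had 21.6 in DMSO and 13.2 in Dox with 2 peaks and 725 nt in each list.

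**Figure D5:**
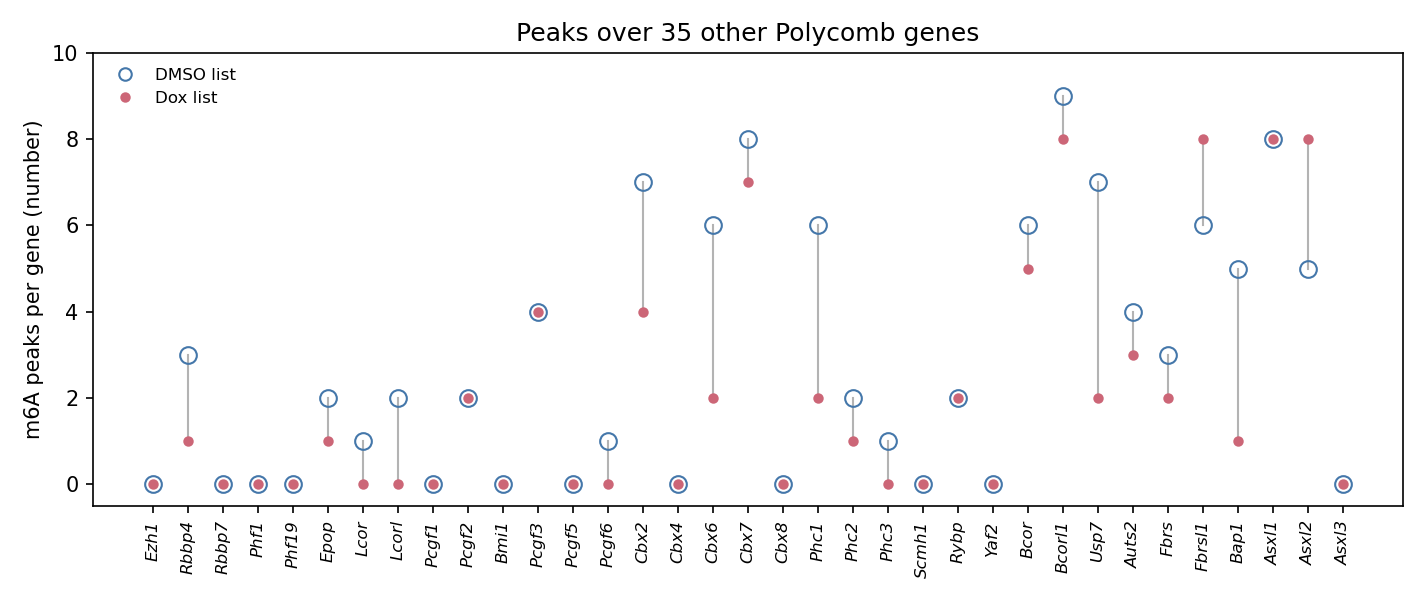
Number of m6A peaks (vertical axis) over each of 35 other Polycomb genes in the DMSO list (open circles) and the Dox list (filled circles), joined by a line. The open circle is the higher one in 17 genes, the filled one in Fbrsl1 and Asxl2, and both coincide at 0 in 12 genes and at 2 to 8 peaks in 4. Of all 6407 genes with a peak in either list, 58.9% had more DMSO peaks.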

How the data were processed

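MeRIP-seq had been carried out in E14 mouse ESCs. Per the labels and the study's methods, the authors filtered reads with fastp 0.19.4, aligned them to mm10 with HISAT2 2.2.1 and called peaks of IP over input with exomePeak2. The caller's version, its settings and the way replicates were combined are not given in the sources used here. The deposited lists hold exon blocks and a score, read as the authors' −log10 p-value (3 DMSO peaks and 1 Dox peak were infinite). A deeper library gives more peaks at a fixed threshold. Blocks were compared with GENCODE release M21, and 99.8% of inner block edges in each list lay at exon edges, as a check of the build. Shared peaks had at least 1 base in common on the same strand. Positions refer to the transcript with the longest coding sequence. A search for near-identical loci used blastn 2.17.0. Steps were run in Python 3.11.15 and tested on simulated peaks, of which 500 of 500 were placed in their gene. With 1 list per treatment no test was made. The 9 genes, the list of 35 other Polycomb genes, the markers and the rules were chosen with earlier results of these data known. The 9 genes and all their peaks were named, and of the other 35 those with a peak in 1 list only, those whose peak number differed by at least 2 and the 5 best scores in each list.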

Additional observations from a re-analysis of the deposited data

How the results depend on the processing

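No paired analysis was possible because the replicates of a treatment were merged into 1 list before deposit, and for the same reason no replicate could be left out. Of 48 alternative values for 15 results, 27 stayed within 1.5 times the main count or within the interval of the main share, and 21 did not. A score of at least 15 left 6 DMSO peaks and 1 Dox peak over the 9 genes, with 1900 and 75 nt covered. They lay in 2 genes (Jarid2 and Mtf2) and 1 gene (Jarid2), and none of them was shared (0% of either list). It left peaks in 6 DMSO and 3 Dox genes of the 35 others, and 2 genes with more DMSO peaks. A score of at least 20 left 3 DMSO peaks, all in 1 gene, and 0 Dox peaks in 0 genes. Among lists of equal size, 3 genes had more DMSO peaks. Asking for 50% of both peaks lowered the shared Dox peaks to 65.4%. These settings of score, list size and overlap were counted for the Polycomb genes alone, so that no share over all peaks or genes stands beside their values. With DRACH in place of GGAC, 85.4% of DMSO and 76.9% of Dox peaks held the motif, and with GGACT 14.6% and 19.2%. Strand, introns and near-identical loci, which were varied for the number of peaks alone, and the window and the transcript, varied for the share at the stop codon alone, moved these past no limit. Most scores lay near the lowest score of the lists, with medians of 11.6 (DMSO) and 11.5 (Dox) over all peaks, and the part of sequencing depth in the presence or absence of short peaks was not tested.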
